A study of Mus musculus with 24 samples.

Results

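The 10 genes described here, of 55414 in the deposited count tables, encode the machinery with which macrophages of the splenic red pulp recover iron from aged red blood cells. They were taken by name as a fixed list and not by their measured values: Spic, Hmox1, Slc40a1, Blvrb, Blvra, Cd163, Slc11a1, Fth1, Ftl1 and Bach1. The series holds 24 libraries of BALB/c mouse spleen, labelled as splenocytes, of which the 8 RNA libraries were used: 4 with control in the title and 4 with CT-26 in the title. The mice are stated to have been 8 weeks old when CT-26, a colon carcinoma line of the BALB/c strain, was injected on the right side. For every library the treatment label is the opposite of the title, since the titled control libraries are listed as injected with CT-26 cells and the titled CT-26 libraries as healthy. Both labels give the same sets of 4, so the sets carry the names in their titles here, fold changes are titled CT-26 relative to titled control, and which set came from tumour-bearing mice cannot be told. The time between injection and collection and the number of animals behind a library are not given in the sources used here. No label says that the 4 libraries of a set are separate animals, so p-values measure only the spread between these libraries.

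Red pulp macrophages engulf senescent red blood cells, and haem from their haemoglobin is broken open by haem oxygenase 1, the product of Hmox1, which releases iron, carbon monoxide and biliverdin. Biliverdin reductase A, encoded by Blvra, converts this biliverdin to bilirubin, and Blvrb encodes biliverdin reductase B, also known as flavin reductase. The freed iron is moved out of the phagosome by transporters such as NRAMP1 (Slc11a1), stored in ferritin shells built from a heavy chain (Fth1) and a light chain (Ftl1), or exported to the blood through ferroportin (Slc40a1). SPI-C, the product of Spic, is the transcription factor on which red pulp macrophages depend, and BACH1 is a haem-sensing repressor that haem removes from its target genes, Hmox1 and Spic among them. CD163 is the scavenger receptor for haemoglobin bound to haptoglobin.

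Several of these transcripts carry iron-responsive elements, short hairpins in untranslated regions to which iron regulatory proteins bind when iron is scarce. In the 5′ untranslated region such a hairpin holds back translation, and in the 3′ untranslated region of the transferrin receptor mRNA (Tfrc) it protects the transcript from decay. The GENCODE M21 transcripts (GRCm38) were searched for a bulged C, 5 bases of stem, the loop CAGTGN with A, C or T as its last base, and the 5 bases that pair with the stem, G with U counted as a pair. This pattern occurred in the 5′ untranslated region of 3 of the 10 genes, Fth1, Ftl1 and Slc40a1, and of 22 of 20916 genes in all (0.105%). It occurred in the 3′ untranslated region of Tfrc at 4 places, and in that of 99 of 21707 genes (0.456%). The elements are shown because the RNA of the genes that carry them did not move together. Each is 29 bases long, 5′ to 3′, with the bulged C and the 6-base loop in capitals.
Fth1, chr19:9982732-9982760, plus strand: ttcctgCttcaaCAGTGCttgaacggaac
Ftl1, chr7:45459779-45459807, minus strand: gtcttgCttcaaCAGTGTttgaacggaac
Slc40a1, chr1:45925465-45925493, minus strand: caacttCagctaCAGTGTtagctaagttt
Tfrc, chr16:32631219-32631247, plus strand: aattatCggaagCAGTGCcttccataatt
Tfrc, chr16:32631598-32631626, plus strand: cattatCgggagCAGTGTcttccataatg
Tfrc, chr16:32631663-32631691, plus strand: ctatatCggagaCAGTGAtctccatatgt
Tfrc, chr16:32631710-32631738, plus strand: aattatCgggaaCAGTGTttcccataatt
The ferritin elements share the same upper stem, and the ferroportin element carries the loop of Ftl1 on a different stem.

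Promoter windows from RefSeq (GRCm38.p6, 250 bases before and 50 after a start) were at hand for 8 of the 10 genes, in 10 windows. Hmox1 and Slc40a1 had none. Both strands were searched for the core of the antioxidant response element bound by NRF2 (TGACNNNGC, in 12.4% of 32851 windows of that length), the short motif of Maf-type factors such as BACH1 (TGCTGAG, 7.84%), the longer Maf recognition element (this motif followed directly by TCA, 0.155%) and a site of the PU.1 and SPI-C class (GAGGAAGT, 3.2%). The short Maf motif was found in the window of Spic at position -198 and, on the opposite strand, in that of Bach1 at position -213. The antioxidant core was found on the opposite strand of the Blvra window at position -49. The other motifs had no match in these 10 windows. Positions are those of the first base of the match in the direction of the gene, relative to the annotated start. The 250 bases before the start of Spic, the gene with the largest fold change of the 10, lie at chr10:88683024-88683273 on the minus strand and are given with the short Maf motif in capitals.
Spic: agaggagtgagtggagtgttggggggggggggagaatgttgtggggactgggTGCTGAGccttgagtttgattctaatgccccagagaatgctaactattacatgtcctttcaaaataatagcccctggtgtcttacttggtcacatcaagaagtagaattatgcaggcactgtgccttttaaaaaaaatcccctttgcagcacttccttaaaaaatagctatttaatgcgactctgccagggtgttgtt
A match describes the letters in a window and is not evidence that a factor binds there.

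The RNA libraries held between 735298 and 1970950 counts of fragments in genes, and between 11890 and 13946 genes had a count. The share of counts from mitochondrially encoded genes was 54.8% ± 9.15 (SD, n = 4) in the titled control set and 37.5% ± 3.91 in the titled CT-26 set, without overlap. Libraries were scaled by the trimmed mean of M-values (TMM) for the levels and tests here. Scaling by library totals instead moved the median fold change of all tested genes by 0.37 on the log2 scale, so calls lost or gained under it are named beside each gene. Markers of splenic lymphocytes, macrophages and red blood cell precursors were present in every library. The 5 epithelial markers summed to 0.601 to 3.22 CPM (counts scaled to a common library total) in the titled control set and to no more than 7.96 in the titled CT-26 set, where 1 library had none, with Krt19 at 0 in all libraries. The 4 hepatocyte markers summed to at most 0.884 CPM in the titled CT-26 set and to 33.3 CPM in titled control 3, against at most 1.07 in the other titled control libraries.

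Of the 10 genes, 9 passed the filter on low counts and were tested across all 6408 tested genes with edgeR's quasi-likelihood test. At an adjusted p under 0.05, 5 were lower in the titled CT-26 set (Spic, Slc40a1, Hmox1, Slc11a1 and Ftl1) and 1 was higher (Blvrb). The remaining 3 (Fth1, Cd163 and Bach1) did not pass, and Blvra was too low to be tested. Calls were frequent in this comparison: 42.8% of all tested genes passed, 21.6% as lower and 21.2% as higher, and the 6 calls among 9 genes are to be read against that. The largest changes stood further out, as 41 tested genes had a lower fold change than Spic, 96 than Slc40a1 and 212 than Hmox1. The log2 fold changes of the other tested members were smaller, between -1.22 (Slc11a1) and 1.13 (Blvrb). Of all tested genes, 844 had a higher fold change than Blvrb. The median log2 fold change of the 9 genes was -0.79, beside -0.02 for all tested genes. The values of the sets did not overlap for 6 of the 9 tested genes, beside 38.5% of all tested genes. These were the 6 called genes, and since a call and a lack of overlap go together, this adds no separate support.

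**Figure D1:**
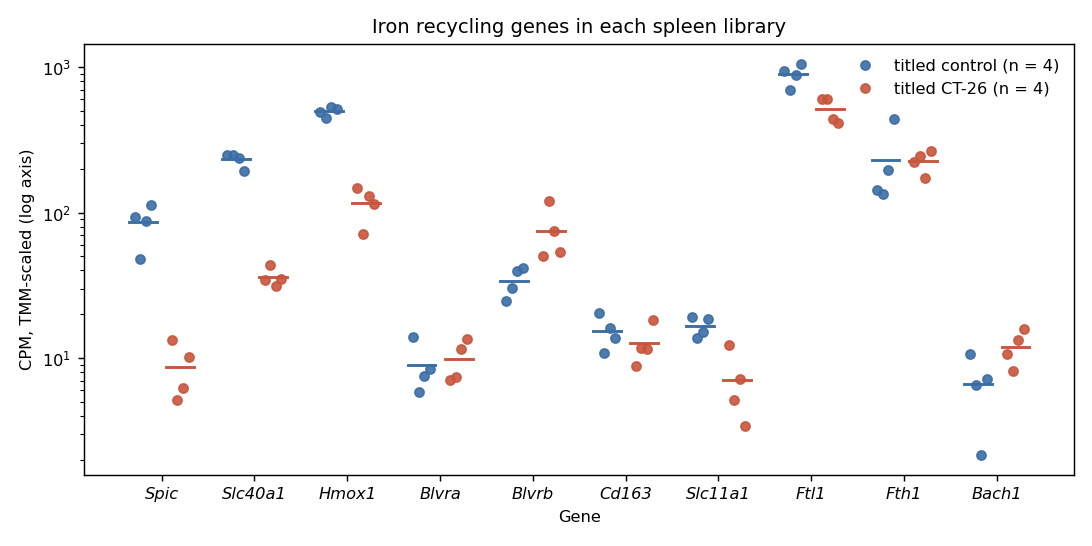
Level of each of the 10 genes in CPM with TMM scaling (log axis), with 1 point per library and a bar at the mean of 4 libraries. The titled CT-26 points of Spic, Slc40a1 and Hmox1 all lie far below the titled control points, those of Blvrb lie above them, and those of Fth1, Cd163, Blvra and Bach1 are mixed with them.

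Per kilobase of exon (RPKM, CPM divided by exon length), Ftl1 was the most abundant of the 10 in both sets, at 668 ± 112 RPKM (SD, n = 4) in the titled control set and 386 ± 77.6 in the titled CT-26 set. In the titled control set it was followed by Hmox1 at 285 ± 20.8 RPKM, Fth1 at 66.1 ± 41.9, Slc40a1 at 25.8 ± 2.91, Spic at 22.4 ± 7.19 and Blvrb at 12.2 ± 2.87. Slc11a1, Blvra, Cd163 and Bach1 lay between 4.50 and 1.07 RPKM. In the titled CT-26 set Hmox1 (66.3 ± 18.6 RPKM) and Fth1 (65.4 ± 11.3 RPKM) did not differ beyond their spread, and Blvrb came next at 26.8 ± 11.4. The order depends on the length taken, which is that of all annotated exons of a gene, 3469 bases for Fth1 and 1751 for Hmox1. Not divided by length, Fth1 stood above Hmox1 in this set, at 227 ± 39.3 against 116 ± 32.7 CPM. Slc40a1 had dropped to 4.01 ± 0.577 RPKM and Spic to 2.27 ± 0.970, among Blvra, Cd163, Bach1 and Slc11a1, which lay between 4.06 and 1.90. Some neighbours in the order overlapped by their mean ± SD. In the titled control set these were Fth1 and Slc40a1, Slc40a1 and Spic, Slc11a1 and Blvra, and Blvra and Cd163. In the titled CT-26 set they were Hmox1 and Fth1, Blvra and Slc40a1, and Cd163, Spic, Bach1 and Slc11a1. Such an overlap does not compare genes within a library. In every titled control library Fth1 (38.4 to 128 RPKM) lay above Slc40a1 (21.5 to 27.8 RPKM), and Blvra lay above Cd163.

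Spic (ENSMUSG00000004359.17, chromosome 10, 88510634 to 88520877, GRCm39 as for every gene position below) had 88, 66, 82 and 189 counts in titled control 1 to 4 and 15, 7, 7 and 9 counts in titled CT-26 1 to 4. Scaled, these were 94.0, 47.8, 88.1 and 114 CPM against 13.3, 5.16, 6.26 and 10.2 CPM. Titled control 2 was the lowest of its set and still above every titled CT-26 library. The mean fell 9.85-fold, from 85.9 ± 27.6 CPM (SD, n = 4) to 8.72 ± 3.73 CPM, with a log2 fold change of -3.31 ± 0.33 (SE) and an adjusted p of 4.24e-09 by edgeR. With 7 to 15 counts a library, the titled CT-26 levels of this transcription factor are known only coarsely. In bulk spleen, the number of macrophages, the RNA in each of them and the share of other cells cannot be told apart, here and for each gene below.

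Hmox1 (ENSMUSG00000005413.9, chromosome 8, 75820249 to 75827217), the haem-degrading enzyme, stood at 495, 450.1, 535 and 516 CPM in titled control 1 to 4. In titled CT-26 1 to 4 it stood at 148, 71.5, 131 and 115 CPM. The titled control libraries were close to each other, at 499 ± 36.4 CPM, and titled CT-26 2 was the lowest of all 8. The mean of the titled CT-26 set was 116 ± 32.7 CPM, 4.30-fold lower, with a log2 fold change of -2.11 ± 0.23 and an adjusted p of 1.58e-08.

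Slc40a1 (ENSMUSG00000025993.11, chromosome 1, 45947228 to 45965683), the only known cellular iron exporter of mammals, had 249.9, 248, 236 and 194 CPM in titled control 1 to 4 and 34.5, 43.5, 31.3 and 35.2 CPM in titled CT-26 1 to 4. Both sets were tight and far apart. The mean fell 6.42-fold, from 232 ± 26.2 to 36.1 ± 5.19 CPM, with a log2 fold change of -2.67 ± 0.22 and an adjusted p of 1.49e-10. By its p-value it ranked 34 of the 6408 tested genes, ahead of Spic at 96 and Hmox1 at 145. Spic, Hmox1 and Slc40a1 passed the test under each of the 17 other settings tried, in which their log2 fold changes lay between -3.59 and -2.92, between -2.23 and -1.76 and between -2.77 and -2.30, respectively.

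The ferritin chains, whose hairpins share their upper stem, fell on different sides of the threshold, and their difference is tested as a ratio further on. Ftl1 (ENSMUSG00000050708.17, chromosome 7, 45107368 to 45109308), the light chain, had 939.7, 699, 885 and 1059 CPM in titled control 1 to 4 and 607, 608, 443 and 413 CPM in titled CT-26 1 to 4. Its mean fell from 896 ± 149.5 to 518 ± 103.95 CPM, with a log2 fold change of -0.79 ± 0.22 and an adjusted p of 0.0037. Scaled by library totals, Ftl1 did not pass, at a log2 fold change of -0.41 and an adjusted p of 0.207, the highest of the 17 settings, the lowest being 0.00069. Fth1 (ENSMUSG00000024661.8, chromosome 19, 9957962 to 9962462), the heavy chain with the ferroxidase site, had 143, 133, 198 and 443 CPM in titled control 1 to 4. It had 222, 245, 174 and 266 CPM in titled CT-26 1 to 4. Titled control 4 stood highest of all 8 libraries, and 3 of the 4 titled CT-26 libraries lay above the other titled control libraries. The means were 229 ± 145 and 227 ± 39.3 CPM, with a log2 fold change of -0.02 ± 0.32 and an adjusted p of 0.96. Without titled control 4 the log2 fold change of Fth1 was 0.53, with an adjusted p of 0.0535, the lowest of the 17 settings, which reached up to 0.997.

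Both chains have processed pseudogenes with near-identical sequence, to which reads can be assigned or from which they can be lost. The 5 ferritin pseudogenes with a symbol starting with Ftl or Fth had 44, 46, 27 and 149 counts in total in titled control 1 to 4. In titled CT-26 1 to 4 they had 50, 26, 29 and 33. Titled control 4 was the highest here too. Most of these counts belonged to Ftl2-ps, which had a log2 fold change of -0.76 ± 0.35 and did not pass, with an adjusted p of 0.0851. Reads lost because they match more than 1 copy are not among these counts. The counts therefore do not set a limit to the uncertainty in the levels of Fth1 and Ftl1.

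Slc11a1 (ENSMUSG00000026177.12, chromosome 1, 74414354 to 74425221), the divalent metal transporter of the phagosome membrane, had 18, 19, 14 and 31 counts in titled control 1 to 4 and 14, 7, 8 and 3 in titled CT-26 1 to 4. The levels were 16.7 ± 2.68 and 7.02 ± 3.88 CPM. The lowest titled control library had 13.8 CPM and the highest titled CT-26 library 12.4 CPM, so that the sets were barely apart. The log2 fold change was -1.22 ± 0.39, with an adjusted p of 0.0122. This call was lost when libraries were scaled by totals (-0.84, adjusted p = 0.116), with sequencing lane as a factor (-1.09, adjusted p = 0.0874) and without titled CT-26 2 (-1.07, adjusted p = 0.0502), and the lowest adjusted p of the 17 settings was 0.00322.

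Blvrb (ENSMUSG00000040466.17, chromosome 7, 27147403 to 27165569), which encodes biliverdin reductase B, also known as flavin reductase and abundant in red blood cells, was the one gene of the 10 that was called higher. It had 24.6, 30.4, 39.7 and 41.5 CPM in titled control 1 to 4 and 50.4, 119, 75.1 and 53.4 CPM in titled CT-26 1 to 4. Titled CT-26 2 was the highest, and titled CT-26 1 and 4 lay little above the titled control range. The mean rose 2.19-fold, from 34.1 ± 7.98 to 74.6 ± 31.8 CPM, with a log2 fold change of 1.13 ± 0.27 and an adjusted p of 0.00129. With sequencing lane as a factor it did not pass, at a log2 fold change of 0.85 and an adjusted p of 0.0574, the highest of the 17 settings, the lowest being 4.06e-05. Among all tested genes, 844 had a higher fold change than Blvrb. Of 12 erythroid precursor markers, 9 were higher and 0 lower, beside 21.2% and 21.6% of all tested genes. The median log2 fold change of these markers was 1.16. Their summed levels overlapped, at 45268 to 82155 CPM in the titled control set and 65627 to 105197 CPM in the titled CT-26 set. Most of these sums came from haemoglobin chains that did not pass, named after their values were seen. These were Hba-a2 (0.45 ± 0.30, adjusted p = 0.243), Hbb-bs (0.07 ± 0.29, adjusted p = 0.867) and Hbb-bt (-0.001 ± 0.27, adjusted p = 0.998). Slc4a1, which encodes the anion exchanger of the red blood cell membrane, had the largest fold change of the list, at 3.44 ± 0.25 on the log2 scale (adjusted p = 1.95e-11). The part of red blood cell precursors in the level of Blvrb was not tested.

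Blvra (ENSMUSG00000001999.16, chromosome 2, 126912585 to 126939004), the other biliverdin reductase, had 13, 8, 7 and 14 counts in titled control 1 to 4 and 8, 10, 13 and 12 in titled CT-26 1 to 4. The levels were 8.91 ± 3.49 and 9.92 ± 3.23 CPM, with overlapping sets. Where another filter let it into the test, its log2 fold change was 0.23 ± 0.45 with no filter (adjusted p = 0.74) and 0.17 ± 0.41 with a minimum of 10 counts in 4 libraries (adjusted p = 0.769).

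Cd163 (ENSMUSG00000008845.10, chromosome 6, 124281615 to 124307486), the haemoglobin scavenger receptor, had 19, 15, 15 and 23 counts in titled control 1 to 4 and 10, 16, 13 and 16 in titled CT-26 1 to 4. At 15.3 ± 3.97 and 12.6 ± 3.95 CPM the sets overlapped, and the log2 fold change was -0.27 ± 0.35 with an adjusted p of 0.562. Bach1 (ENSMUSG00000025612.6, chromosome 16, 87495833 to 87530234), the haem-sensing repressor, had 10, 9, 2 and 12 counts and then 12, 11, 15 and 14 counts. At 6.64 ± 3.50 and 12.01 ± 3.38 CPM the sets overlapped, and its log2 fold change was 0.81 ± 0.43 with an adjusted p of 0.127. Scaled by totals, Bach1 passed at 1.22 with an adjusted p of 0.0275, and over the other settings its adjusted p reached 0.323. At counts this low a p that misses the threshold does not show that either gene was equal between the sets.

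**Figure D2:**
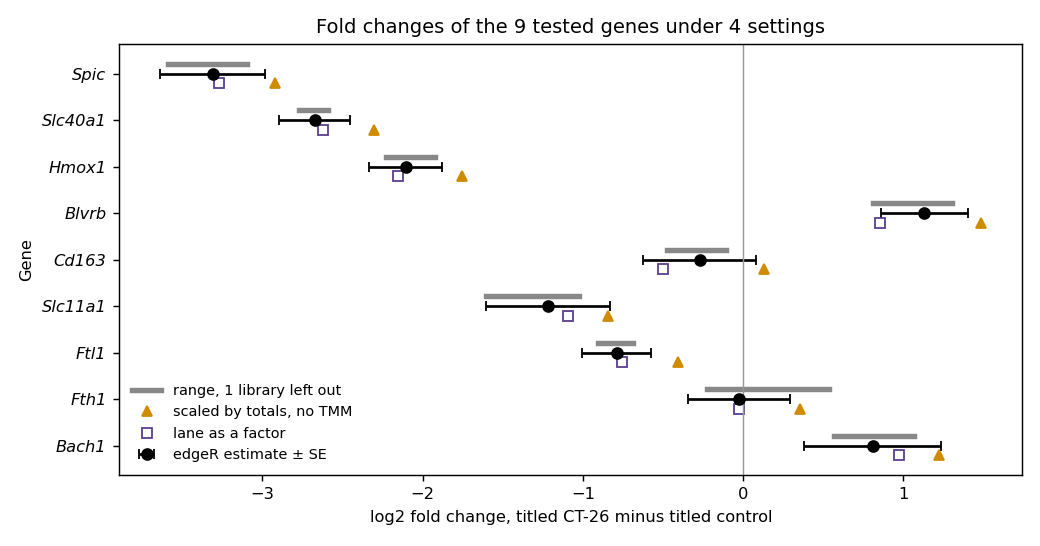
Log2 fold change of the 9 tested genes (x axis) by gene (y axis), with the edgeR estimate ± SE, the range when 1 library at a time was left out, the value scaled by totals and the value with lane as a factor. Spic, Slc40a1 and Hmox1 stay below -1.7 in all of them, and the values of Fth1 and Cd163 fall on both sides of 0.

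Lanes read from the file names divide the libraries unevenly: lanes 1 and 2 held libraries of both sets, and lanes 3 and 4 held 1 library each, which add nothing to a comparison adjusted for lane. With lane as a factor, 31.3% of all tested genes passed. Of the 10 genes, Spic, Slc40a1, Hmox1 and Ftl1 passed as lower and 0 as higher. In lane 1 (1 titled control and 2 titled CT-26 libraries) the differences in mean log2 CPM were -3.52 for Spic, -2.56 for Hmox1, -2.58 for Slc40a1, -0.82 for Ftl1, -1.73 for Slc11a1 and 0.996 for Blvrb. In lane 2 (2 titled control libraries and 1 titled CT-26 library) they were -2.92, -1.77, -2.66, -0.72, -0.59 and 0.65 in the same order. Every one of the 6 called genes had the same direction in both lanes, which sets without overlap fix in advance. Fth1 (0.37 and -0.18) and Blvra (0.38 and -0.58) did not, and Bach1 stood at 2.14 and 0.27 and Cd163 at -0.14 and -0.89.

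The make-up of the pathway's RNA differed between the sets. Of all counts on the 10 genes, not divided by length, Spic, Hmox1 and Slc40a1 together made up 41.7%, 45.3%, 42.5% and 34.1% in titled control 1 to 4, against 17.6%, 10.7%, 18.6% and 17.0% in titled CT-26 1 to 4. The ferritin chains made up 53.9%, 50.6%, 53.5% and 62.2%, against 74.4%, 75.8%, 68.3% and 72.0%. In neither case did the sets overlap, which adds no separate support. Spic, Hmox1 and Slc40a1 had the largest fold changes of the 10 genes, and each had sets without overlap on its own. The ferritin chains made up most of the remaining counts. Blvrb had 1.22% to 1.96% of all counts on the 10 genes in the titled control set, against 4.53% to 10.6% in the other set. The summed level of the 10 genes was 1646 to 2415 CPM in the titled control set and 905 to 1125 CPM in the titled CT-26 set. Shares of a total are tied to each other, so these figures describe the libraries and were not tested.

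**Figure D3:**
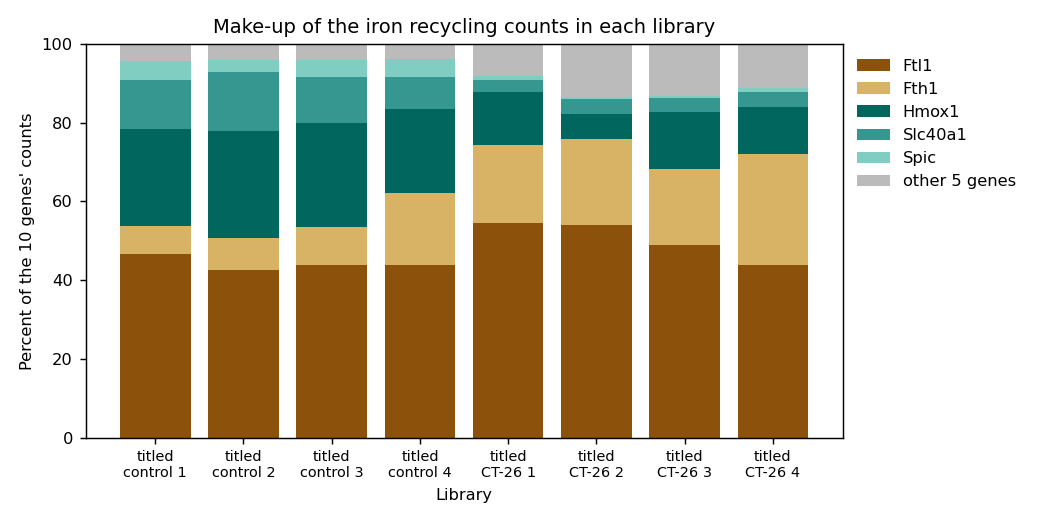
Percent of the 10 genes' counts that fell on each gene (y axis, stacked bars) in each of the 8 libraries (x axis). The green segments of Hmox1, Slc40a1 and Spic together take 34.1% to 45.3% of the titled control bars and 10.7% to 18.6% of the titled CT-26 bars, and the brown ferritin segments take the larger part of every bar.

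Ratios of 2 genes within a library do not depend on scaling between libraries, and 8 of them were compared by an exact two-sided permutation test over 70 assignments, whose smallest p is 0.0286. None passed after adjustment over the 8 ratios, which a single ratio could not do even at that smallest p, and 1 was under 0.05 unadjusted. That one was Hmox1 to Bach1, the target gene to its repressor, per kilobase. The ratio was 156, 231, 704 and 242 in titled control 1 to 4 and 47.3, 29.9, 33.4 and 24.7 in titled CT-26 1 to 4. Titled control 3, with 2 counts of Bach1, gave the value of 704. Hmox1 was itself called lower, with a log2 fold change of -2.11 and sets without overlap. Bach1, at 2 to 15 counts a library, did not pass (0.81, adjusted p = 0.127 by edgeR). The sets did not overlap, and the mean log2 ratio differed by -3.09 (exact p = 0.0286, adjusted p = 0.183). Fth1 to Ftl1, the heavy to the light chain, was 0.0590, 0.0738, 0.0864 and 0.162 against 0.142, 0.156, 0.152 and 0.249. Titled control 4 placed itself among the titled CT-26 libraries, and the difference of 0.94 in log2 ratio did not pass (exact p = 0.114, adjusted p = 0.183). Hmox1 to Slc40a1, haem degradation to iron export, differed by 0.52 (exact p = 0.171, adjusted p = 0.229), and Blvra to Blvrb by -0.89 (exact p = 0.2, adjusted p = 0.229). The levels of all 8 ratios rest on the annotated exon lengths, which leave the differences between the sets unchanged.

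The other 4 ratios set a gene against Adgre1, which encodes the macrophage surface protein F4/80 and was itself lower, with a log2 fold change of -1.78 ± 0.32 and an adjusted p of 4.75e-05. Per kilobase, Spic stood at 1.72, 0.581, 1.76 and 3.23 times Adgre1 in titled control 1 to 4 and at 0.637, 0.281, 0.843 and 0.641 times in titled CT-26 1 to 4. Titled control 2 lay among the titled CT-26 libraries, and the difference of -1.47 in log2 ratio had an exact p of 0.114 (adjusted p = 0.183). Slc40a1 to Adgre1 differed by -0.88 (exact p = 0.0571, adjusted p = 0.183) and Hmox1 to Adgre1 by -0.36 (exact p = 0.543, adjusted p = 0.543). Fth1 to Adgre1 differed by 1.94 (exact p = 0.0857, adjusted p = 0.183). With Adgre1 counts of 7 to 22 in the titled CT-26 libraries these ratios are imprecise. Since 4 libraries a set cannot give a single ratio an adjusted p under 0.05, the adjusted values do not say whether the iron genes fell further than the macrophage marker.

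**Figure D4:**
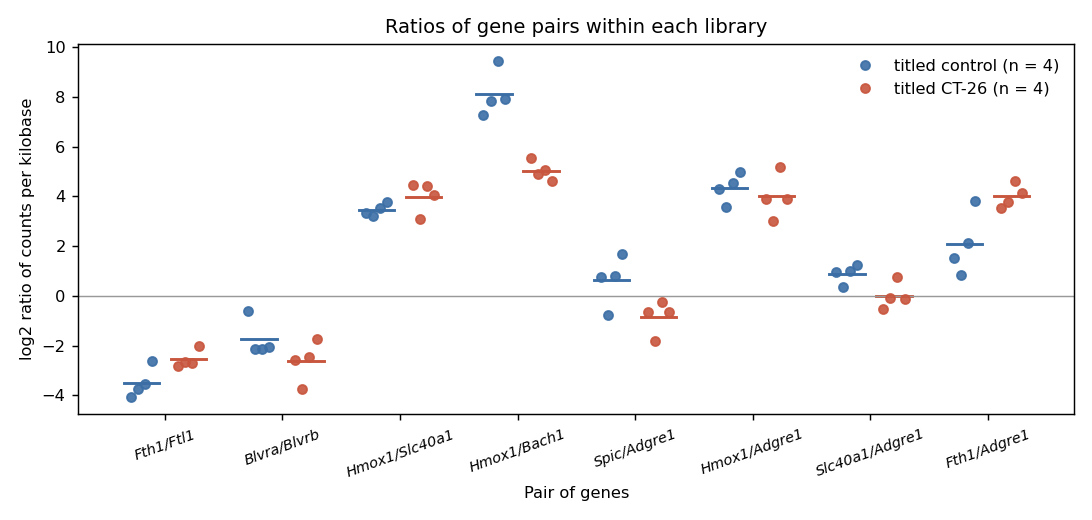
Log2 ratio of counts per kilobase for 8 pairs of genes (x axis), with 1 point per library and a bar at the mean of 4 libraries. Only for Hmox1 to Bach1 are the sets of points separate, and the mean log2 ratio differs by -3.09 there.

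Markers of red pulp macrophages went down with these genes, but not all of them. Of 12 tested markers, 7 were lower (beside 21.6% of all tested genes), 0 higher and 5 did not pass. Their median log2 fold change was -0.98, beside -0.02 for all tested genes. The summed level of the markers was 2175 to 2515 CPM in the titled control set and 1331 to 1704 CPM in the titled CT-26 set. The largest fold change was that of Treml4, a receptor of splenic macrophages and dendritic cells, which had 45.4 ± 14.6 and 3.14 ± 2.56 CPM and a log2 fold change of -3.89 ± 0.41 (adjusted p = 1.2e-08). Axl, a receptor for apoptotic cells, changed by -1.70 ± 0.26 (adjusted p = 4.83e-06), and the lysosomal protein gene Cd68 by -1.34 ± 0.23 (adjusted p = 2.49e-05). Vcam1, an adhesion molecule of red pulp macrophages that was singled out after its values were seen, had a log2 fold change of 0.39 ± 0.21 and did not pass (adjusted p = 0.129). Scaled by totals it passed as higher, at 0.78 with an adjusted p of 0.0114, and its highest adjusted p over the 17 settings was 0.322. The part of the number of macrophages in the changes of Spic, Hmox1 and Slc40a1 was not tested.

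Markers of the neighbouring macrophages and of monocytes, from which red pulp macrophages can be replaced, were mostly lower or not past the test. Of 2 tested markers of marginal zone and metallophilic macrophages, Cd209b was lower (-1.65 ± 0.51, adjusted p = 0.01) and Marco did not pass (-0.61 ± 0.33, adjusted p = 0.133). The value of Cd209b was -2.38 without titled CT-26 3 and -2.41 with lane as a factor, and its adjusted p lay between 0.00171 and 0.041 over the 17 settings. Their list summed to 42.0 to 73.7 CPM against 18.4 to 29.2 CPM. Of 5 tested monocyte markers 3 were lower and 0 higher, beside 21.6% lower and 21.2% higher of all tested genes. Among those lower were Clec4a1 at -2.26 ± 0.25 (adjusted p = 3.41e-08) and Plac8 at -1.65 ± 0.27 (adjusted p = 3.35e-05). Lyz2 was lower by -0.77 ± 0.22 (adjusted p = 0.00476) but did not pass when scaled by totals, with an adjusted p of 0.221 and the other settings going down to 0.00137. Ccr2, the chemokine receptor of inflammatory monocytes, did not pass at -1.26 ± 0.61 (adjusted p = 0.136). Without titled control 4, where its level was 13.8 CPM against 81.2 to 113 CPM in the rest of the set, Ccr2 passed at -1.63 with an adjusted p of 5.39e-06, and over the 17 settings the adjusted p reached 0.416. Ly6c2, which encodes the Ly6C surface protein, did not pass (0.06 ± 0.22, adjusted p = 0.836), and F13a1, which encodes a coagulation factor, was left out by the filter at 0, 3, 3 and 2 counts in titled control 1 to 4 and 9, 10, 13 and 10 in titled CT-26 1 to 4. Both were added after their values were seen, and the counts of F13a1, untested, did not overlap between the sets, with the titled CT-26 counts above the others. The monocyte list summed to 774 to 1379 CPM against 355 to 584 CPM.

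Other cell types of the spleen moved with the sets as well. Of 9 neutrophil markers, 7 were higher and 0 lower, beside 21.2% and 21.6% of all tested genes. Ngp stood at 3.38 ± 0.29 and Lcn2 at 2.65 ± 0.27 (adjusted p = 9.8e-10 and 1.71e-08). Retnlg (0.68 ± 0.64, adjusted p = 0.436) and Csf3r (-0.45 ± 0.41, adjusted p = 0.396), named after their values were seen, did not pass. The neutrophil list summed to 585 to 1764 CPM against 3989 to 9696 CPM. All 7 B cell markers and all 7 T cell markers tested were lower, with medians of -2.29 and -1.46, among them Ms4a1 (CD20) at -3.93 ± 0.25 and Cd8a at -3.60 ± 0.44 (adjusted p = 6.04e-12 and 1.3e-07). The B cell list summed to 1549 to 2362 CPM against 233 to 426 CPM, and the T cell list to 503 to 548 CPM against 139 to 315 CPM. Their part in the levels of the 10 genes, which are measured relative to all counts of the whole spleen, was not tested.

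**Figure D5:**
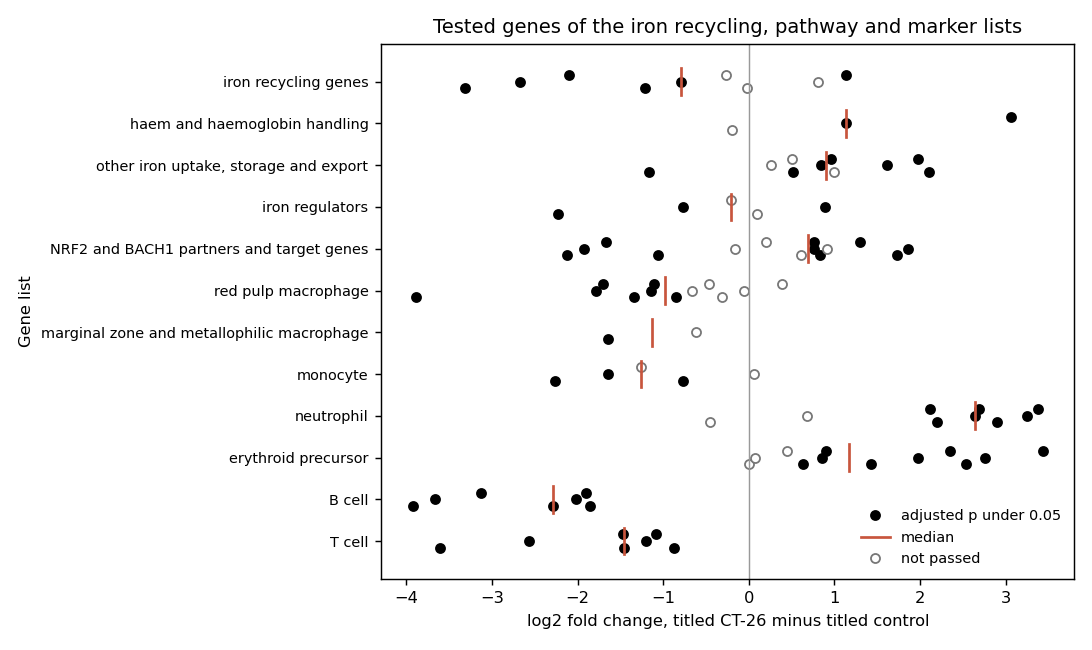
Log2 fold change (x axis) of each tested gene of the iron recycling genes, of 4 pathway lists and of 7 lists of cell type markers (y axis), with filled points at an adjusted p under 0.05, open points for the rest and a red bar at the median of each list. Medians run from -2.29 for B cells to 2.65 for neutrophils, and the iron recycling genes lie on both sides of 0.

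Other genes that handle iron were more often higher than lower in the titled CT-26 set. Among 15 genes of iron uptake, storage and export, 10 were tested, of which 6 were higher and 1 lower, with a median log2 fold change of 0.90. Over all tested genes, 21.2% were higher and 21.6% lower. Tfrc, the transferrin receptor through which red blood cell precursors take up iron and the carrier of the 4 hairpins shown above, had 331, 324, 226 and 245 CPM in titled control 1 to 4 and 699, 1363, 1651 and 1111 CPM in titled CT-26 1 to 4. The sets were well apart, at a log2 fold change of 2.10 ± 0.25 and an adjusted p of 7.09e-08. Slc25a37, which encodes mitoferrin 1, the mitochondrial iron importer of red blood cell precursors, rose from 403 ± 50.4 to 1579 ± 445 CPM (1.97 ± 0.24, adjusted p = 8.88e-08). Steap3, the endosomal ferrireductase that works with the transferrin receptor, rose from 11.3 ± 2.99 to 34.9 ± 13.7 CPM (1.61 ± 0.34, adjusted p = 0.0003), but with lane as a factor it did not pass (1.03, adjusted p = 0.0789, the highest of 17 settings, the lowest being 5.17e-06). Trf, which encodes transferrin, was the one gene of the list called lower, at -1.16 ± 0.42 (adjusted p = 0.0259). That call was lost in 5 of 17 settings, with adjusted p between 0.0116 and 0.151: scaled by totals, with lane as a factor, and without titled control 3, titled CT-26 2 or titled CT-26 3.

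Of the 9 genes of haem and haemoglobin handling, 3 were tested and 2 of these were higher, beside 21.2% of all tested genes. Abcg2, an exporter of haem and porphyrins, had 26.5 ± 8.03 CPM in the titled control set and 220 ± 39.9 in the titled CT-26 set (3.06 ± 0.25, adjusted p = 1.11e-10). Pgrmc1, a haem-binding membrane protein, was called higher at 1.13 ± 0.40 (adjusted p = 0.0228), but not with lane as a factor or without titled control 2, titled control 3 or titled CT-26 2, the adjusted p lying between 0.00088 and 0.0936 over the 17 settings. Leaving out 1 library moved the log2 fold change of Pgrmc1 between 0.78 (without titled control 2) and 1.77 (without titled control 4). Slc48a1, the transporter that carries haem out of the phagolysosome of macrophages, was at 293 ± 43.3 and 255 ± 36.7 CPM with overlapping sets (-0.20 ± 0.20, adjusted p = 0.457). Haptoglobin (Hp), the carrier that presents haemoglobin to CD163, was left out by the filter at 3, 4, 2 and 0 counts in titled control 1 to 4 and 9, 31, 16 and 20 counts in titled CT-26 1 to 4, a gene singled out after its values were seen.

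Among 11 regulators of iron balance, 5 were tested, of which 1 was higher and 2 lower. These 5 are too few to set against the 21.2% higher and 21.6% lower of all tested genes. Hfe, which tunes iron sensing through the transferrin receptor, fell from 25.4 ± 5.02 to 5.42 ± 2.22 CPM (-2.22 ± 0.37, adjusted p = 1.78e-05). Aco1, which encodes iron regulatory protein 1, rose from 35.4 ± 6.89 to 66.5 ± 12.6 CPM (0.89 ± 0.24, adjusted p = 0.00314). Ireb2, which encodes iron regulatory protein 2, did not pass (-0.20 ± 0.27, adjusted p = 0.563). Fbxl5, the iron-sensing adaptor that leads iron regulatory protein 2 to degradation, was called lower at -0.77 ± 0.27 (adjusted p = 0.022). The call on Fbxl5 was lost in 6 of 17 settings, namely scaled by totals, with no filter, with lane as a factor, and without titled control 1, titled CT-26 2 or titled CT-26 3, with adjusted p between 0.00892 and 0.346. Hepcidin (Hamp), the hormone that degrades ferroportin, had 1 count in all 8 libraries together.

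Hmox1, Fth1 and Ftl1 are textbook targets of NRF2 and BACH1, and 21 further partners and targets of these factors were listed. Of these, 14 were tested, 6 were higher and 4 lower, with a median of 0.69. Over all tested genes, 21.2% were higher and 21.6% lower. Gclm, a subunit of the enzyme that starts glutathione synthesis, rose from 64.1 ± 12.05 to 213 ± 55.4 CPM (1.73 ± 0.23, adjusted p = 4.14e-07), opposite to Hmox1. Prdx1, a peroxiredoxin, fell from 258 ± 35.1 to 123 ± 20.5 CPM (-1.06 ± 0.21, adjusted p = 0.000112). Maf, a large relative of the small Maf partners of these factors, which macrophages express, changed by -2.13 ± 0.32 (adjusted p = 3.06e-06), and Bach2, the lymphocyte relative of Bach1, by -1.93 ± 0.26 (adjusted p = 6.08e-07).

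The genes whose pattern over the 8 libraries was most like that of each of the largest changes were sought among 6394 tested genes other than the 10, by the root mean square difference of log2 CPM after each gene's mean was removed. For Spic they were Ms4a4b (0.33), Id3 (0.38) and mt-Ti (0.40). For Hmox1 they were Mitd1 (0.17), Acp2 (0.17) and Ccnd2 (0.20). For Slc40a1 they were Icos (0.20), Cd48 (0.25) and Inpp4b (0.26). Hmox1 and Slc40a1 were less like Spic than these, at 0.67 and 0.66, and differed from each other by 0.49. Ms4a4b had 179.9 ± 37.4 and 21.3 ± 7.28 CPM in the titled control and titled CT-26 sets, Mitd1 39.9 ± 5.05 and 9.20 ± 2.42 CPM, and Icos 46.7 ± 11.3 and 8.22 ± 1.47 CPM. The measure follows the difference between the sets as well as the spread between libraries, and is a description with no test.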

How the data were processed

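RNA was measured in 8 spleen libraries, 1 table each. The authors deposited raw counts of fragments per gene, which per the file headers came from featureCounts 2.0.1 and the GENCODE M29 annotation (GRCm39), with fragments counted as pairs and no strand or multi-mapping option. Reads from overlapping genes on opposite strands therefore cannot be told apart, and reads shared with near-identical copies can be lost. Trimmomatic 0.39, STAR 2.7.10a, GRCm39 and GRCm38 are named in the submitters' processing notes. Symbols were found for 52081 of 55414 genes, and 1 listed gene was matched by an older symbol. Printed gene positions are those of the tables, and sequences come from GRCm38.

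The test was the robust quasi-likelihood F test of edgeR after its filterByExpr and TMM steps, with no covariate. It compared titled CT-26 with titled control, and p was adjusted over 6408 genes (Benjamini-Hochberg, threshold 0.05). The SE is the absolute log2 fold change divided by the square root of F. CPM use TMM-scaled totals of tested genes, with 0.5 counts added for log2 values and ratios, and values after ± are SD over 4 libraries unless they follow a log2 fold change, where they are SE. The depth gives 0.601 to 1.14 CPM for a single count. Alternatives were no TMM, DESeq2, RLE factors, no mitochondrial genes, no filter, at least 10 counts in at least 4 libraries, limma voom, lane as a factor, the replicate number as a block, and each library left out, 17 in all. In each of 4 pathway and 9 marker lists, up to 4 tested genes of smallest p are named, and for Spic, Hmox1 and Slc40a1 the 3 nearest genes with a mean log2 CPM of at least 3. A gene that this rule takes in is not reported here. The genes, lists and tests were chosen with earlier results of these data known. No library was a copy of another in its set, since chi-square per degree of freedom was at least 3.70 for every pair. The tests were checked on simulated data. The TCR and BCR tables were not used here. The R packages were edgeR 4.0.16, DESeq2 1.42.0 and limma 3.58.1 under R 4.3.3, and pandas 2.3.3, numpy 2.4.6, matplotlib 3.10.9 and scipy 1.17.1 ran under Python 3.11.15.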

Additional observations from a re-analysis of the deposited data

Results flagged for a closer look

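The log2 ratio of Blvra to Blvrb per kilobase was -0.61 in titled control 1, far from the other titled control libraries, which lay at -2.14, -2.14 and -2.07. It was the one value of 36 sets of 4 in which the gap to the nearest library exceeded the 95% critical value of Dixon's test, and chance passes it in about 1 of 20 sets. It rests on 13 counts of Blvra and 23 of Blvrb.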

How the results depend on the processing

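Over the 17 alternatives, between 4 and 6 of the 10 genes were called (6 in the reported test), with no change of direction among called genes. The 8 ratios had no call under any of their alternatives, and a design of 4 against 4 libraries cannot give 1 to a single ratio of 8. Scaled by totals, 725 of all genes were lower, against 1381, and 1936 higher, against 1359 (72.8% of calls against 49.6%), and 2 of the 10 genes were higher and 3 lower. With lane as a factor, 0 of the 10 were higher and 4 lower, and 20 of the list genes were higher, against 31. Libraries of the same number did not deviate together (correlations between -0.0914 and 0.0764 over all tested genes), so the numbers were not taken as pairs. With the replicate number as a block, 2668 of all genes were called, against 2740, and 6 of the 10 and 63 of the list genes, as without it. The block left the 8 ratios without a call, since 16 sign flips cannot give a p below 0.125. Without each library in turn, 5 or 6 of the 10 genes were called. The depth limits Bach1, Blvra, Cd163 and Slc11a1 most, at 2 to 31 counts a library.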
